A study of Mus musculus with 4 samples.

Results

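The Hox cluster genes are described here in skeletal progenitors of newborn mouse limbs. The members are the protein-coding genes of the deposited count table whose symbol is Hoxa, Hoxb, Hoxc or Hoxd followed by a paralog number, which gave 39 of 55487 genes: 11 Hoxa, 10 Hoxb, 9 Hoxc and 9 Hoxd genes. Their selection used symbols alone and no measured value. RNA was sequenced from sorted Prx1-lineage cells (GFP-positive and alive, without CD45, Tie2 or Ter119) of pups at postnatal day 1, in 2 libraries titled cKO (cKO 2 and cKO 3) and 2 titled WT (WT 2 and WT 3). In cKO pups the gene Ecsit, which encodes an assembly factor of mitochondrial complex I, is meant to be deleted by Prx1-Cre, which acts in limb mesenchyme and all that descends from it. The study's methods give cKO as Ecsit fl/fl with Prx1-Cre and Rosa mT/mG, and WT as Ecsit +/+ with the same Cre and reporter, so that every sorted cell carries Cre and expresses GFP. The genotype field goes against the titles: it reads Ecsitfl/fl;Rosa26mTmG for the libraries titled cKO and EcsitPrx1;Rosa26mTmG for those titled WT. Groups were taken from the titles, and every direction below turns round if the titles are exchanged.

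Hox genes encode homeodomain transcription factors and stand in 4 clusters that arose by duplication of an ancestral one. Genes with the same paralog number in different clusters descend from the same ancestral gene and encode similar homeodomains. Within a cluster the order of the genes follows their order of activation in the embryo and their domain along the body axis, with low numbers anterior and high numbers posterior. In the mouse limb the posterior genes of the Hoxa and Hoxd clusters are known for patterning from the upper limb (groups 9 and 10) through the forearm and shank (group 11) to the digits (group 13), while posterior Hoxc genes are known from the hindlimb and several central Hoxc genes from the forelimb.

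On GRCm38 the Hoxa cluster lies on the minus strand of chromosome 6 and spans 105.3 kb. The Hoxb cluster lies at chr11:96194316-96368256 and spans 173.9 kb, the Hoxc cluster at chr15:102921103-103036852 spans 115.8 kb, and the Hoxd cluster at chr2:74668310-74765142 spans 96.8 kb, all on the plus strand. The homeobox, the stretch of 180 coding bases for the DNA-binding homeodomain, was found in the GENCODE transcript of all 39 members. The homeoboxes of paralog group 10 are shown because this group holds the most strongly expressed Hoxa gene and called members of opposite direction in the Hoxc and Hoxd clusters. Capitals mark the 50 positions at which the 3 genes are not all alike (Hoxa10 at chr6:52231197-52240854, Hoxc10 at chr15:102966796-102971893, Hoxd10 at chr2:74691924-74695105).
Hoxa10: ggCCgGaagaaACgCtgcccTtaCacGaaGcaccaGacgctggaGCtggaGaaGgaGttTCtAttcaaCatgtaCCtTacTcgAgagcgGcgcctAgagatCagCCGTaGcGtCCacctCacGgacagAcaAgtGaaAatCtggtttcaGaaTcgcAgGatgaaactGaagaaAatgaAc
Hoxc10: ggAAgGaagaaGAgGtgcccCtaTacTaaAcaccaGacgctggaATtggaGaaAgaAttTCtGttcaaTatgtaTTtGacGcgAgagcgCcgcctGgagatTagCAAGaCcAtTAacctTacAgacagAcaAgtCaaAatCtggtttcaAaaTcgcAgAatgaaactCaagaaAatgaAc
Hoxd10: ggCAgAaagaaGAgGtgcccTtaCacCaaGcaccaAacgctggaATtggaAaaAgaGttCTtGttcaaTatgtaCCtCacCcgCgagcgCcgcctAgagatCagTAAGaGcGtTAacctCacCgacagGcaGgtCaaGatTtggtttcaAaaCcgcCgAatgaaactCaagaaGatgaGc

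Hoxa10 and Hoxc10 were identical at 80.6% of homeobox bases, Hoxa10 and Hoxd10 at 78.9%, and Hoxc10 and Hoxd10 at 82.8%. The longest run of bases shared by Hoxb9 and Hoxc9 was 50, and over the 42 pairs of members with the same number the longest shared run was 12 to 50 bases with a median of 17. Identity over these 42 pairs was 67.2% to 93.9% with a median of 80.6%, against a median of 60.6% over the 699 pairs with different numbers. Read length is not given in the sources used here, so how often a fragment could match 2 paralogs was not tested. A second source of uncertainty is overlap in the annotation: 16 of the 39 members share exon bases with another gene. The share was 35.0% for Hoxa11 (with its antisense gene Hoxa11os), 52.9% for Hoxb3 and 27.3% for Hoxb2 (both with Hoxb3os), 62.8% for Hoxd3 and 52.3% for Hoxd4 (with each other, with Gm28230 and with antisense genes). The library protocol marks no strand, so reads of a gene and of its antisense partner cannot be told apart there.

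The libraries held 18266573 to 20152872 counts, and 1 count was worth 0.0492 to 0.0561 CPM (counts scaled to the size of the library with TMM factors). The labels do not say whether the libraries came from separate pups, so p-values measure only the spread between these libraries. Ecsit was at 33.6 and 30.2 CPM in the libraries labelled cKO, against 12.6 and 18.9 CPM in those labelled WT, which goes against the titles. The exons that the deletion removes are not given in the sources used here. Progenitor markers were high in every library (Prrx1 at 194 to 265 CPM, Pdgfra at 291 to 481 CPM). The series text names hindlimbs, but Tbx5, the forelimb selector gene, was at 29.7 and 32.1 CPM in cKO and at 57.9 and 42.0 CPM in WT libraries. The hindlimb genes Tbx4 (39.0 and 39.6 CPM in cKO, 46.4 and 39.2 CPM in WT) and Pitx1 (98.8 and 121 CPM in cKO, 46.7 and 94.3 CPM in WT) were present as well. The data thus go against a pure hindlimb origin, and the cells are called limb progenitors here.

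Levels of different genes were compared as CPM per kb of exon. Per kb the means of posterior genes (numbers 9 to 13) ran from 0 CPM for Hoxc13 to 19.3 CPM for Hoxa10 and Hoxd13. Shares of the classes were taken from counts, without scaling to exon length. Posterior genes held 76.1% and 78.2% of all Hox gene counts in cKO libraries, against 74.6% and 85.5% in WT libraries. Central genes (4 to 8) held 21.1% and 19.4% in cKO and 21.7% and 13% in WT libraries. Anterior genes (1 to 3) held 2.76% and 2.47% in cKO and 3.70% and 1.48% in WT libraries. For each class the values of the cKO libraries lay between those of the 2 WT libraries. All Hox genes together reached 332 and 322 CPM in cKO libraries, against 299 and 345 CPM in WT libraries, so the groups overlapped here too.

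**Figure D1:**
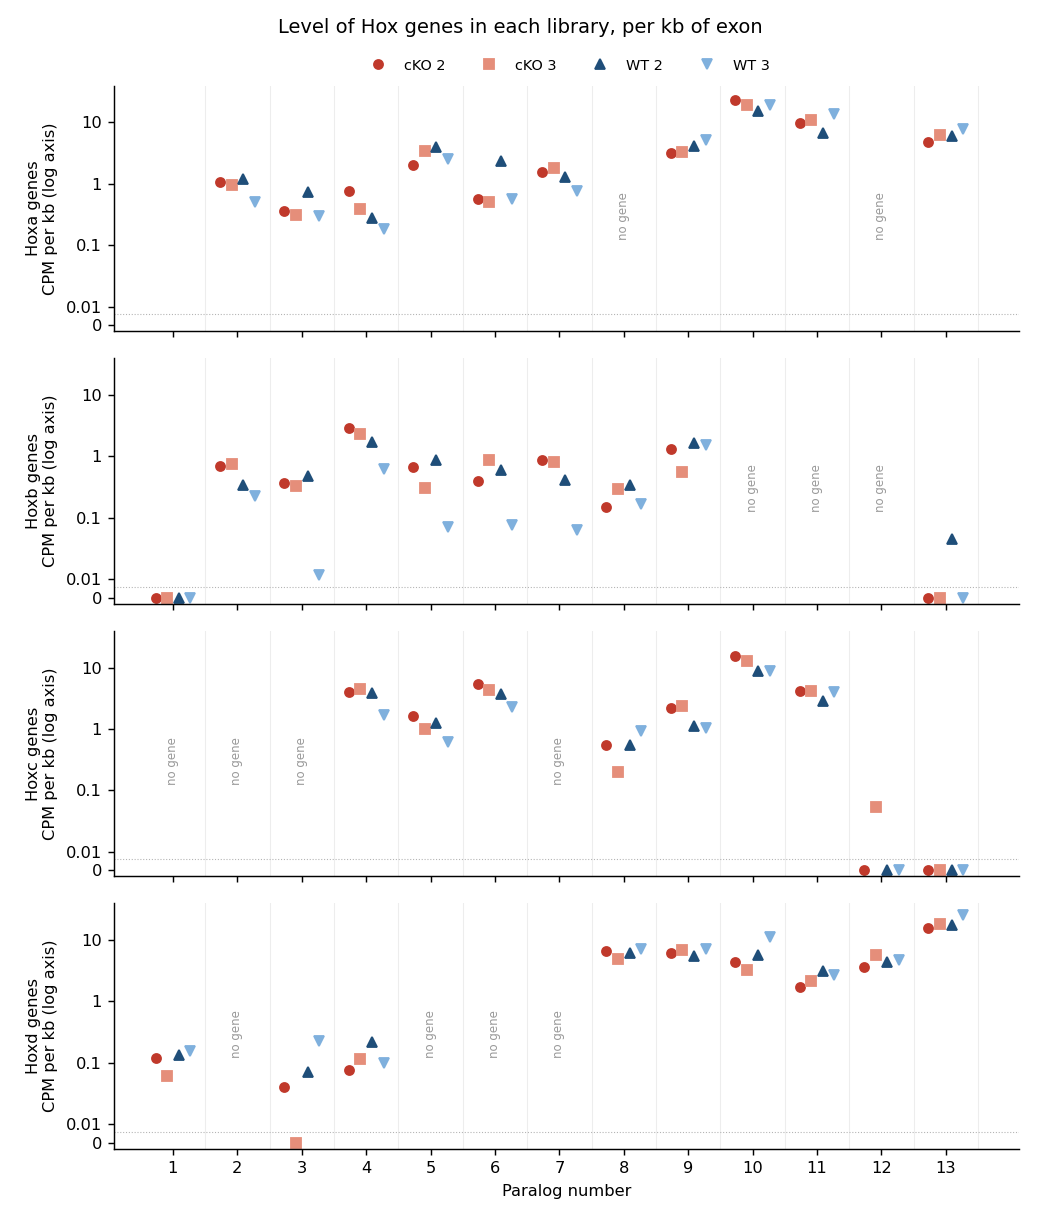
Level of 38 Hox genes in each library as CPM per kb of exon (log axis, with 0 drawn below the dotted line) against paralog number, 1 panel per cluster, where each point is 1 library. Hoxa10 (15.3 to 23.3 CPM per kb) and Hoxd13 (16.0 to 25.2 CPM per kb) stand highest, and WT 3 falls far below the other libraries at Hoxb3, Hoxb5, Hoxb6 and Hoxb7.

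Hoxa10 and Hoxd13 shared the highest mean level, 19.3 CPM per kb over the 4 libraries, and their ranges overlapped. Hoxa10, a regulator of the upper limb segment and of haematopoiesis, was at 76.3 and 63.8 CPM in cKO libraries, against 50.1 and 62.2 CPM in WT libraries. Hoxd13, which is required for digit formation, was at 39.6 and 45.7 CPM in cKO and at 43.2 and 62.7 CPM in WT libraries. Next came Hoxc10 with a mean of 11.5 CPM per kb and Hoxa11 with 10.3 CPM per kb. Hoxa11, a regulator of the middle limb segment, was at 22.8 and 24.8 CPM in cKO libraries, while the WT libraries were farther apart at 15.4 and 31.6 CPM. With its CPM divided by the length of the exon bases that no other gene shares, Hoxa11 came to 15.9 CPM per kb and to rank 3 of the 39. Reads were not recounted over those bases, so this value is too high if reads in the shared bases were counted. These 4 genes were followed by a block of Hoxd9, Hoxd8, Hoxa13 and Hoxd10, whose means of 6.09 to 6.49 CPM per kb lay closer together than the libraries of any 1 of them.

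In the Hoxa cluster the level was highest at number 10, and the means were under 1 CPM per kb for its members numbered 4 and below. Hoxa9 was at 17.8 and 18.4 CPM in cKO libraries, against 23.3 and 28.9 CPM in WT libraries, and the groups did not overlap. Hoxa13, the second digit gene, was at 12 and 15.4 CPM in cKO and at 14.7 and 19.4 CPM in WT libraries. Among the central Hoxa genes Hoxa5 (3.84 and 6.4 CPM in cKO, 7.48 and 4.73 CPM in WT) and Hoxa7 (4.45 and 5.22 CPM in cKO, 3.69 and 2.22 CPM in WT) were the most abundant per kb. Hoxa2 and Hoxa3, which act in the hindbrain and pharyngeal arches, stayed between 0.886 and 4.44 CPM in every library. Hoxa4 was under 1.3 CPM throughout, and Hoxa6 exceeded 1 CPM in WT 2 alone (0.501 and 0.449 CPM in cKO, 2.05 and 0.492 CPM in WT).

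In the Hoxd cluster the level broke off between numbers 8 and 4. Hoxd8 was at 18.3 and 13.3 CPM in cKO and at 17.0 and 19.8 CPM in WT libraries, and Hoxd9 was at 13.4 and 14.6 CPM in cKO and at 12 and 15.5 CPM in WT libraries. Hoxd11, the partner of Hoxa11 in the middle limb segment, was at 7.24 and 8.92 CPM in cKO libraries, against 13.3 and 11.3 CPM in WT libraries, without overlap. Hoxd12, a neighbour of Hoxd13 that is also active in the hand and foot plate, was at 9.30 and 14.3 CPM in cKO and at 11.2 and 12.1 CPM in WT libraries. By contrast Hoxd1, Hoxd3 and Hoxd4 were under 1 CPM in every library and fell below the filter on low counts.

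In the Hoxc cluster the level per kb was highest at Hoxc10. Among its central genes it was highest at Hoxc6 (mean 3.94 CPM per kb) and Hoxc4 (3.51), with Hoxc5 (1.11) lower between them. Hoxc6 was at 13.1 and 10.6 CPM in cKO libraries, against 8.78 and 5.56 CPM in WT libraries. Hoxc4 was at 10.3 and 11.4 CPM in cKO libraries, against 10.1 and 4.28 CPM in WT libraries. For both the groups did not overlap, though for Hoxc4 cKO 2 and WT 2 were nearly alike. Hoxc11, a hindlimb gene in the mouse, was at 8.46 and 8.36 CPM in cKO and at 5.69 and 7.98 CPM in WT libraries. Hoxc5 (5.01 and 3.03 CPM in cKO, 3.79 and 1.92 CPM in WT) and Hoxc8 (1.56 and 0.561 CPM in cKO, 1.55 and 2.66 CPM in WT) overlapped between groups. Hoxc12 had 1 count in cKO 3 and none elsewhere, and Hoxc13 had none in any library, where 3 counts would be 0.148 to 0.168 CPM.

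The Hoxb cluster was the least abundant. Its most abundant member per kb, Hoxb4, which is known for its action in blood stem cells, was at 7.40 and 5.89 CPM in cKO libraries, against 4.34 and 1.62 CPM in WT libraries. Hoxb9 was at 3.34 and 1.46 CPM in cKO libraries, against 4.19 and 3.94 CPM in WT libraries. Hoxb7 was at 1.34 and 1.23 CPM in cKO libraries, against 0.648 and 0.0985 CPM in WT libraries. Hoxb3, Hoxb5, Hoxb6 and Hoxb8 lay between 0.0492 and 2.44 CPM, and Hoxb1 had no count in any library, as Hoxb13 had but for 2 counts in WT 2.

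The share of the Hox gene counts that fell to each cluster was computed for every library. Hoxc genes held 22.1% and 19.9% of all Hox gene counts in cKO libraries, against 16.6% and 12.1% in WT libraries. Hoxd genes held 29.0% and 32.0% in cKO libraries, against 36.2% and 41.5% in WT libraries. For these clusters the groups did not overlap. Hoxa genes held 43.2% and 43.1% in cKO and 41.6% and 44.3% in WT libraries, and Hoxb genes held 5.76% and 4.95% in cKO and 5.70% and 2.11% in WT libraries. In CPM the Hoxc genes summed to 73.4 and 64.1 in cKO libraries, against 49.5 and 41.9 in WT libraries, and the Hoxd genes to 96.2 and 103 in cKO libraries, against 108 and 143 in WT libraries. With 2 libraries a group the smallest p of a two-sided exact permutation test is 0.333, and no test of these sums and shares was run.

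**Figure D2:**
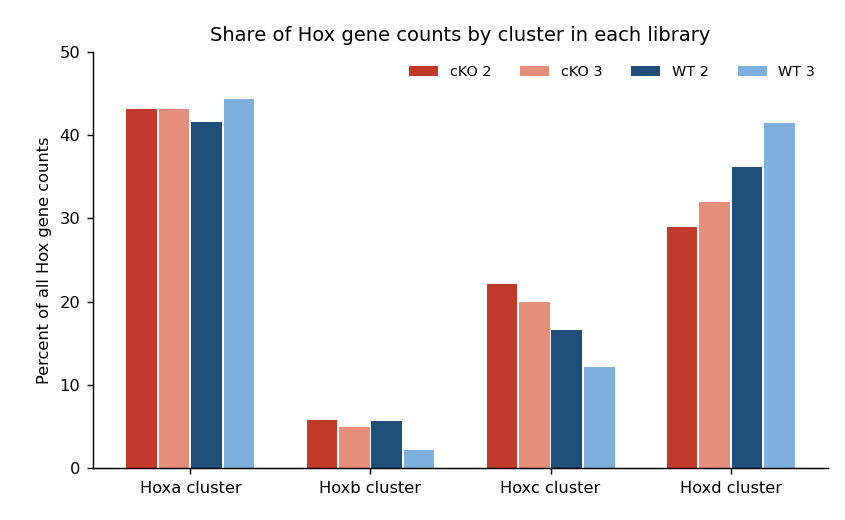
Percent of all Hox gene counts that fell to each cluster in each library, where each bar is 1 library. The Hoxc share is larger in both cKO libraries (22.1% and 19.9%) than in both WT libraries (16.6% and 12.1%), and the Hoxd share is smaller (29.0% and 32.0% against 36.2% and 41.5%).

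Libraries labelled cKO were then compared with libraries labelled WT gene by gene, which addresses whether the Hox code of the progenitors differs when Ecsit is targeted. Of the 39 members 32 passed the filter on low counts. Both libraries of both groups exceeded the limit of 0.53 CPM for 23 of them, 7 passed through 1 group alone, and 2 passed with 1 library in each group. The 7 members not tested were Hoxb1 and Hoxc13, at 0 in every library, and Hoxb13, Hoxc12, Hoxd1, Hoxd3 and Hoxd4, and the members tested held 99.7% of all Hox gene counts. By the quasi-likelihood test of edgeR with Benjamini-Hochberg adjustment over 16157 genes, 3 members rose (Hoxc9, Hoxc10 and Hoxb2) and 1 fell (Hoxd10) at an adjusted p under 0.05. Among all genes tested 14.1% rose and 14.3% fell, so neither count of members was above the share of all genes. Without adjustment p was under 0.05 for 6 members with a positive and 3 with a negative difference. The median log2 fold change over the members tested was 0.04, and over all genes tested it was -0.02.

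Hoxc9, which acts in the thoracic and more posterior segments of the embryo, had 97 and 104 counts in cKO libraries, against 54 and 51 counts in WT libraries. This was 5.40 and 5.84 CPM in cKO, against 2.69 and 2.51 CPM in WT, and the libraries of each label lay close together. Its log2 fold change was 1.11 (SE 0.29, edgeR adjusted p = 0.0303). Its neighbour Hoxc10, a hindlimb gene in the mouse and the most abundant Hoxc gene per kb, was at 29.6 and 24.3 CPM in cKO libraries, against 17.0 and 17.0 CPM in WT libraries. Its log2 fold change was 0.67 (SE 0.21, edgeR adjusted p = 0.0494), just inside the threshold. Hoxb2, a regulator of hindbrain segments, was at 2.45 and 2.58 CPM in cKO libraries, against 1.20 and 0.788 CPM in WT libraries. Its log2 fold change was 1.34 (SE 0.41, edgeR adjusted p = 0.0449), from 44 and 46 counts in cKO and 24 and 16 counts in WT libraries.

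Hoxd10, which acts in the upper and middle limb segments and in the motor neurons of the leg, was at 7.85 and 5.89 CPM in cKO libraries, against 10.3 and 20.1 CPM in WT libraries. The groups did not overlap, and WT 3 was far above WT 2. Its log2 fold change was -1.15 (SE 0.35, edgeR adjusted p = 0.0443). Within paralog group 10 the fitted differences thus were 0.32 for Hoxa10, 0.67 for Hoxc10 and -1.15 for Hoxd10, and the group summed to 114 and 93.9 CPM in cKO and to 77.4 and 99.3 CPM in WT libraries. Within paralog group 9 they were -0.53 for Hoxa9, -0.76 for Hoxb9, 1.11 for Hoxc9 and 0.02 for Hoxd9. Differences between paralogs were not tested.

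**Figure D3:**
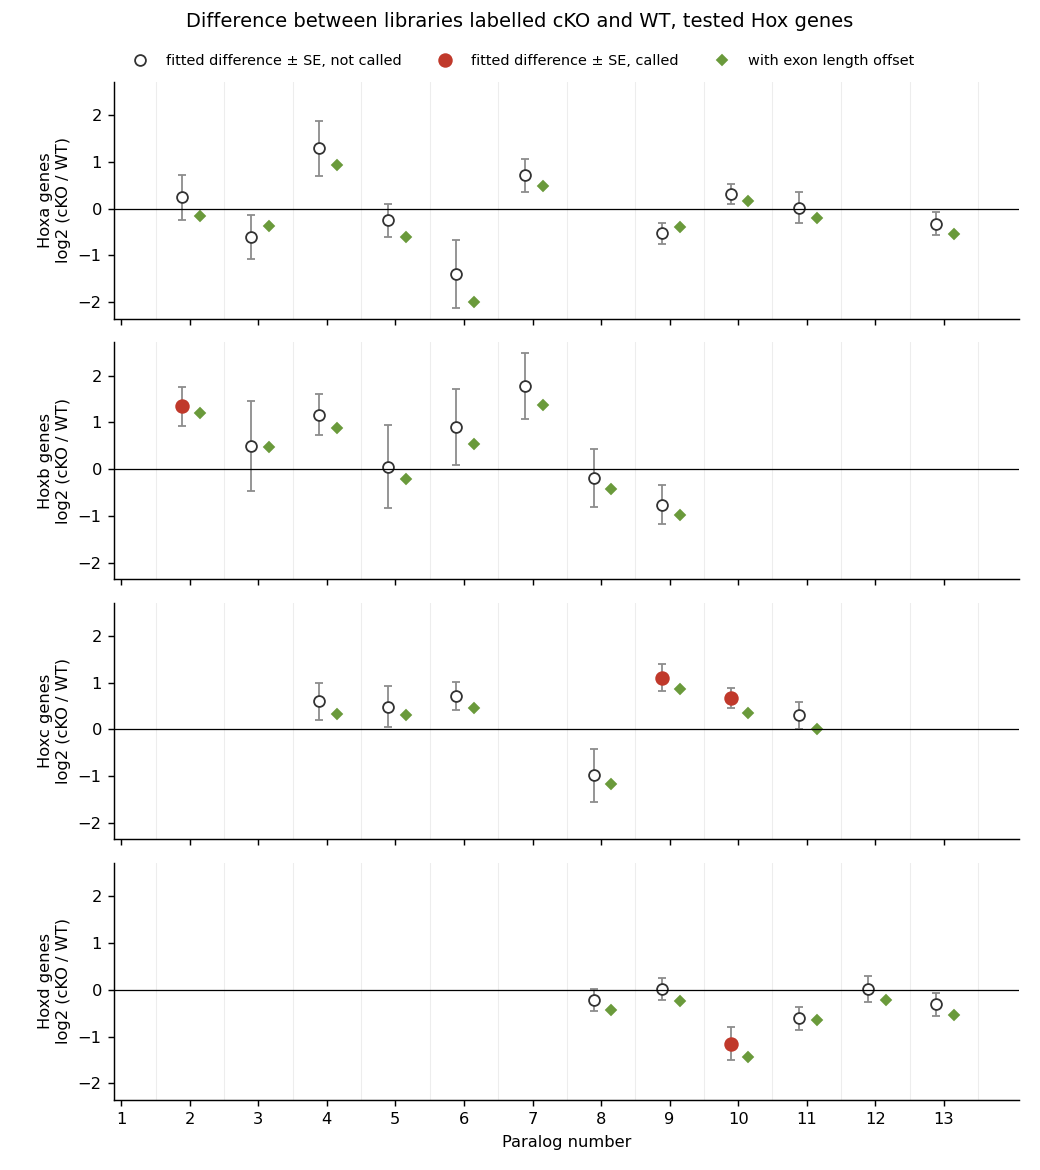
Fitted log2 ratio of libraries labelled cKO over libraries labelled WT for 31 tested Hox genes by paralog number, 1 panel per cluster, with bars of 1 SE. Filled circles mark the called genes Hoxb2 (1.34), Hoxc9 (1.11), Hoxc10 (0.67) and Hoxd10 (-1.15), and diamonds give the value of the same gene with an offset for exon length.

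The most abundant members of the other clusters per kb did not pass. Hoxa10 had a log2 fold change of 0.32 (SE 0.21, edgeR adjusted p = 0.271), Hoxd13 of -0.31 (SE 0.24, edgeR adjusted p = 0.335) and Hoxb4 of 1.16 (SE 0.44, edgeR adjusted p = 0.0825). By cluster the median log2 fold change over tested members was -0.12 for Hoxa, 0.70 for Hoxb, 0.60 for Hoxc and -0.27 for Hoxd genes. Positive values were fitted for 5 of 11 Hoxa, 6 of 8 Hoxb, 6 of 7 Hoxc and 2 of 6 Hoxd genes. Both cKO libraries lay above both WT libraries for 11 of the 32 members, where 36.3% of all genes tested did so, and below them for 4, where 36.2% of all genes did so.

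The number of calls depended on single libraries, for members as for genes at large. Without WT 2 there were 10 members higher and 3 lower (17.8% and 15.0% of all genes), among them Hoxb4 (2.03), Hoxc4 (1.34), Hoxc6 (1.09) and Hoxd13 (-0.55). Without WT 3 there were 4 higher and 3 lower (26.2% and 25.0% of all genes): Hoxc9 and Hoxc10 were called again, Hoxa10 (0.49), Hoxa11 (0.63), Hoxa3 (-1.12), Hoxa6 (-2.09) and Hoxd11 (-0.72) joined, and Hoxb2 and Hoxd10 were lost. Without cKO 2 edgeR called no member (unadjusted, 2 were higher and 4 lower), where 3.03% of all genes rose and 2.98% fell. Without cKO 3 it called none either (unadjusted, 2 were higher and 1 lower), where 2.91% of all genes rose and 4.35% fell. The differences without cKO 2 and without cKO 3 were 1.17 and 1.03 for Hoxc9, 1.37 and 1.3 for Hoxb2, 0.52 and 0.78 for Hoxc10, and -1.36 and -0.97 for Hoxd10. In the fit without WT 3, Hoxa6 passed the count filter only through WT 2, where it was high (41 counts, beside 9 and 8 in cKO libraries). In the fit without WT 2, Hoxb3, Hoxb6 and Hoxb7 passed only through the cKO libraries, with 1, 3 and 2 counts in WT 3. On all 4 libraries DESeq2, by which 14.4% of all genes rose and 14.4% fell, called 1 member higher, Hoxc9 (adjusted p = 0.0338), and 1 lower, Hoxd10 (adjusted p = 0.0128).

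The 2 WT libraries differed from each other in a way that went with the position in the cluster and with the cluster itself. The difference cKO 3 minus cKO 2 in log2 CPM (prior count 2) had a median of -0.16 over the tested anterior members, of -0.22 over central members and of 0.11 over posterior members. For the difference WT 3 minus WT 2 these medians were -1.19, -0.91 and 0.31. Of 15 central members 13 were lower in WT 3 than in WT 2, while 10 of 16 posterior members were higher in WT 3 and 4 were lower. Of 8 anterior members 5 were lower in WT 3 and 2 were higher, namely the untested Hoxd1 and Hoxd3. By cluster 7 of 9 Hoxd genes were higher in WT 3, while 9 of 10 Hoxb genes were lower and 0 were higher. The members tested spread more than genes at large: the median absolute difference between the cKO libraries was 0.29 over members, against 0.16 over all genes tested, and between the WT libraries 0.68, against 0.39. Members also had lower levels than genes at large, with a median of mean CPM of 4.46, against 16.6. For 20 of the 32 members the WT libraries differed by more than cKO differed from WT, and for 13 the cKO libraries did. This sets differences of single libraries against fitted differences of groups, and it was not counted over all genes.

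**Figure D4:**
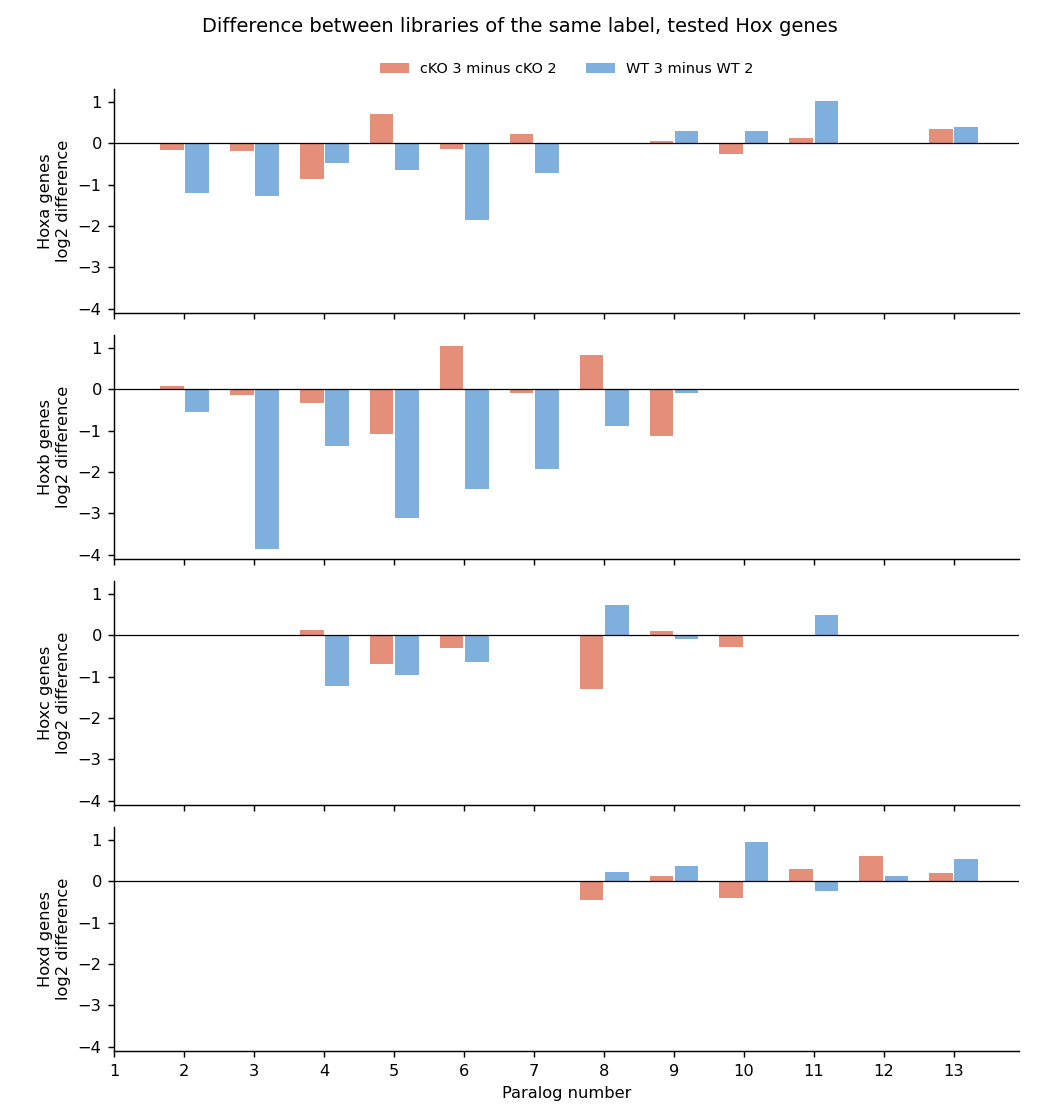
Difference in log2 CPM (prior count 2) between the libraries of each label for 31 tested Hox genes by paralog number, 1 panel per cluster. cKO 3 minus cKO 2 (red) is over 1 in size at Hoxb5, Hoxb6, Hoxb9 and Hoxc8, and WT 3 minus WT 2 (blue) is negative for every drawn gene numbered below 8 and mostly positive from number 10 on.

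The gap was widest in the Hoxb cluster. Hoxb3 had 28 and 25 counts in cKO libraries, beside 41 counts in WT 2 and 1 in WT 3. Hoxb5 had 34 and 15 counts in cKO libraries, beside 49 counts in WT 2 and 4 in WT 3. Hoxb6 had 14 and 31 counts in cKO libraries, beside 24 in WT 2 and 3 in WT 3, and Hoxb7 had 24 and 22 in cKO libraries, beside 13 in WT 2 and 2 in WT 3. In all of these genes both cKO libraries held more counts than WT 3. Among tested members Hoxd10 (0.96) and Hoxa11 (1.03) showed the widest gaps in the other direction, higher in WT 3. Xist was at 188 CPM in cKO 3 and 1120 CPM in WT 2 and under 0.5 CPM in cKO 2 and WT 3, so each label held 1 library with Xist and 1 without. Xist thus differed within both labels. Over central members tested the median of WT 3 minus WT 2 was -0.91, where WT 2 held Xist. The median of cKO 3 minus cKO 2 was -0.22, where cKO 3 held Xist. The part of Xist in these gaps was not tested.

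Exon length moved with the differences as well. Genes were split by exon length into 10 bins of nearly equal size, and the median log2 fold change was 0.84 in the bin of shortest and -0.75 in the bin of longest genes, with 0.57 and -0.47 for WT 3 minus WT 2. Tested Hox genes had a median exon length of 2508 bases (874 to 6014), against 4098 bases over all genes tested. The bin from 2037 to 2697 bases held 12 members and had a median log2 fold change of 0.33. With an offset for exon length in each library 1 member rose (16.5% of all genes did so) and 2 fell (12.7% of all genes), and the median over members was -0.21, against 0.04 over all genes. Hoxc9 (0.86, adjusted p = 0.0479) and Hoxd10 (-1.43, adjusted p = 0.00769) were still called and Hoxd13 (-0.53, adjusted p = 0.0476) joined them. Hoxb2 (1.20, adjusted p = 0.0532) and Hoxc10 (0.35, adjusted p = 0.216) no longer passed.

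**Figure D5:**
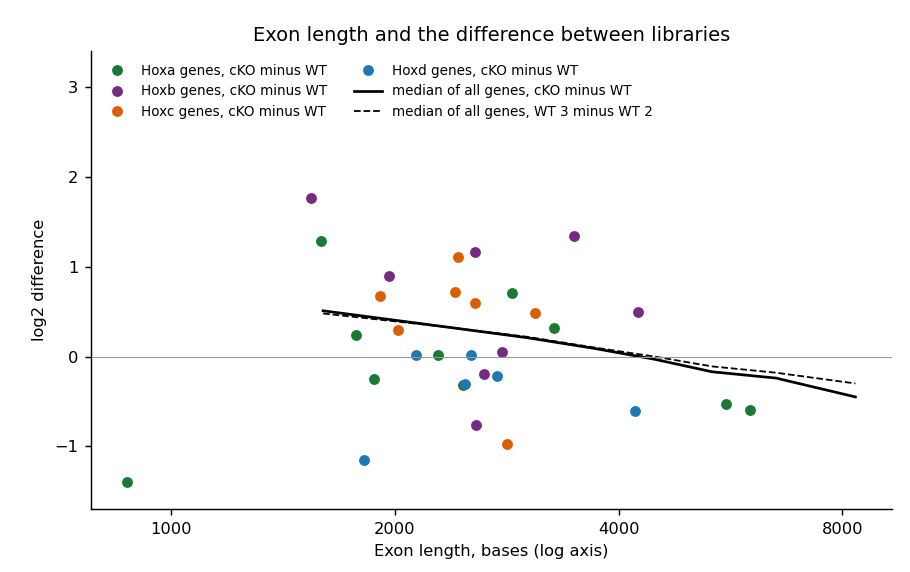
Fitted log2 difference of cKO minus WT for 31 tested Hox genes (points, coloured by cluster) against exon length (log axis). Lines join the medians of all tested genes in 8 of 10 bins of exon length, without the shortest and the longest, solid for cKO minus WT (0.51 to -0.45) and dashed for WT 3 minus WT 2 (0.48 to -0.30).

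Markers of other cell types differed between the labels. All 5 chondrocyte markers fell (summed level 3990 and 3980 CPM in cKO, 13400 and 6670 CPM in WT libraries), and so did the 3 Schwann cell markers tested (2.62 and 2.41 CPM in cKO, 8.08 and 7.38 CPM in WT). Of 4 muscle markers tested 3 rose (39.1 and 37.8 CPM in cKO, 10.4 and 10.6 CPM in WT), and 4 of 4 erythroid markers tested rose (1790 and 1730 CPM in cKO, 582 and 513 CPM in WT). No marker of these lists was at 0 in any library. With the length offset 4 chondrocyte, 3 Schwann cell, 3 muscle and 3 erythroid markers were still called, and without cKO 2 or cKO 3 fewer were. Of other lists, 2 of 3 tendon markers rose, 1 of 4 osteoblast markers tested fell, and of 4 haematopoietic markers 1 rose and 1 fell. No endothelial or keratinocyte marker was called. The forelimb gene Tbx5 (-0.69) was not called by edgeR, but it was called lower by DESeq2 and with the length offset (-0.66). The hindlimb genes Tbx4 and Pitx1 were called in none of these fits. Among all genes tested 14.1% rose and 14.3% fell. In bulk RNA, fewer cells of a type and less RNA per cell cannot be told apart. The part of these markers, of the Tbx5, Tbx4 and Pitx1 levels above and of exon length in the Hox differences was not tested.

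Other genes inside the clusters were mostly at or near 0. Of 46 such genes 17 had no count and 10 were tested. Where 14.1% of all genes tested rose and 14.3% fell, 1 of these 10 was called. Hoxa11os, the antisense gene of Hoxa11 and the most abundant of them, was at 20.1 and 22.1 CPM in cKO and at 18.9 and 32.9 CPM in WT libraries, and like Hoxa11 it was higher in WT 3 than in WT 2. Gm11539, a processed pseudogene in the Hoxb cluster, rose (3.17 and 2.02 CPM in cKO, 0.698 and 1.08 CPM in WT, log2 fold change 1.54, edgeR adjusted p = 0.0394), but with the exon length offset it was at 0.89 and no longer called (adjusted p = 0.145). Hotair, a noncoding RNA of the Hoxc cluster known from posterior tissues, was at 0.779 and 0.786 CPM in cKO and at 0.499 and 0.689 CPM in WT libraries. Hotairm1, a noncoding RNA of the Hoxa cluster, was at 1.00 and 0.954 CPM in cKO, against 0.449 and 0.443 CPM in WT libraries, and was not called (log2 fold change 1.12, edgeR adjusted p = 0.12).

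The Evx genes, homeobox genes that flank the posterior ends of the Hoxa and Hoxd clusters, both fell. Among all genes tested 14.1% rose and 14.3% fell. Evx2, next to Hoxd13, was at 3.79 and 2.97 CPM in cKO libraries, against 7.83 and 7.93 CPM in WT libraries (log2 fold change -1.22, SE 0.28, edgeR adjusted p = 0.0220). Evx1, next to Hoxa13, had 5 and 2 counts in cKO libraries, which was 0.278 and 0.112 CPM, against 1.25 and 1.38 CPM in WT libraries (log2 fold change -2.71, SE 0.60, edgeR adjusted p = 0.0199). Evx1 passed the count filter through the WT libraries alone, where it was high. With the length offset Evx2 and Evx1 were at -1.25 and -2.90 and still called, where 12.7% of all genes fell. Without cKO 2 or cKO 3 neither was called, in fits that called far fewer of all genes. The Cdx genes, upstream activators of Hox genes in the trunk, had at most 0.148 CPM summed and were not tested.

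The DNA-binding partners of Hox proteins in the Pbx, Meis and Pknox families were all tested. By edgeR 0 of 9 were called (1 higher and 0 lower before adjustment, none by DESeq2), with a median log2 fold change of -0.13. Among all genes tested 14.1% rose and 14.3% fell. With the length offset 1 partner rose, Meis1 (0.76, edgeR adjusted p = 0.0163), and 0 fell, with a median of 0.30. In that fit 16.5% of all genes rose and 12.7% fell. Without WT 3 most of these partners were called, some higher and some lower, in a fit that called more of all genes in both directions. Pbx2, the most abundant per kb, was at 73.4 and 74.5 CPM in cKO and at 49.8 and 62.0 CPM in WT libraries. Meis3 was at 32.3 and 27.6 CPM in cKO and at 20.5 and 27.6 CPM in WT libraries.

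Among Polycomb genes, whose products keep Hox genes silent, 1 of 28 rose and 5 fell, with a median of -0.33. Among all genes tested 14.1% rose and 14.3% fell. Jarid2 (-1.63, adjusted p = 0.0127), Suz12 (-0.99, adjusted p = 0.0198) and Phf19 (0.97, adjusted p = 0.0187), all linked to the complex that methylates histone H3, were among them by edgeR, as was Aebp2 of the same complex (-0.72, adjusted p = 0.0288), which was at -0.21 and not called with the length offset. Among 17 Trithorax and chromatin genes, which include activators of Hox genes and cohesin, 3 rose and 5 fell, with a median of -0.34. Kmt2a, a histone methyltransferase needed to maintain Hox expression, was at 19.8 and 22.8 CPM in cKO libraries, against 138 and 66.8 CPM in WT libraries (log2 fold change -2.26, SE 0.34, edgeR adjusted p = 0.0127). Its exons span 16670 bases, and with the length offset its value was -1.28. Dpy30 (0.98, edgeR adjusted p = 0.0273), Wdr5 (0.75) and Men1 (0.59), whose products join the methyltransferase complexes of this family, rose. Nipbl, the loader of cohesin, was at -1.41 (edgeR adjusted p = 0.0137, and at -0.90 with the length offset), and Kdm6b, a histone demethylase that opposes Polycomb, at -1.86 (edgeR adjusted p = 0.0168). With the length offset the counts were 4 higher and 4 lower in the Polycomb list and 4 and 3 in the other. In that fit 16.5% of all genes rose and 12.7% fell, and the medians of the 2 lists were -0.12 and -0.11.

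Of 13 limb patterning genes tested, 0 rose and 6 fell by edgeR (0 higher and 7 lower both before adjustment and by DESeq2), with a median of -0.69. By edgeR 14.1% of all genes tested rose and 14.3% fell. With the length offset 0 of the list rose and 6 fell, with a median of -0.59. Lmx1b, which sets dorsal identity in the limb, was at 11.2 and 13.2 CPM in cKO libraries, against 32.9 and 31.3 CPM in WT libraries (log2 fold change -1.39, SE 0.21, edgeR adjusted p = 0.0131). Gli3, the mediator of Hedgehog signals that shapes posterior Hoxd expression in the mouse limb bud, was at 39.3 and 47.2 CPM in cKO libraries, against 166 and 85.5 CPM in WT libraries (log2 fold change -1.54, SE 0.31, edgeR adjusted p = 0.0176), and with the length offset its value was -0.99. Tfap2b (-2.91) and Sall1 (-1.14) fell as well, and Shh had no count in any library. For fits with single libraries left out, the shares of all genes called are those given above with the Hox genes. Without cKO 2 the calls higher and lower were 0 and 1 in the Polycomb, 0 and 2 in the Trithorax and 0 and 1 in the limb patterning list, and without cKO 3 they were 0 and 1, 0 and 3, and 0 and 4. Without WT 2 they were 4 and 8, 3 and 6, and 0 and 6, and without WT 3 they were 6 and 10, 3 and 8, and 3 and 7.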

How the data were processed

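The authors deposited raw counts per gene for 2 libraries titled cKO and 2 titled WT. The study's methods give mm10, STAR, GENCODE vM25 and featureCounts, which by default leaves out fragments that fall in several genes. The submitters' processing notes instead give HTSeq 0.11.3 beside STAR 2.6.1b, with DESeq2 1.28.1, and list a human build (GRCh38.p12) although the gene identifiers are those of the mouse. Which pipeline made the table is not given in the sources used here. Of its identifiers 99.5% matched GENCODE vM21 on GRCm38, from which positions, union exon lengths and homeobox sequences were read.

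Genes were filtered with filterByExpr (minimum count 10), scaled with TMM and tested in R 4.3.3 with edgeR 4.0.16 (glmQLFit and glmQLFTest, group as the only term). The p-values were adjusted after Benjamini and Hochberg over 16157 genes with a threshold of 0.05, and the SE is the log2 fold change divided by the root of F. The study's methods use DESeq2 with ashr and a minimum log2 fold change of 0.585 in size, which were run as alternatives (DESeq2 1.42.0, ashr 2.2.63). Other alternatives were DESeq2's size factors in edgeR, TMM factors computed without ribosomal and mitochondrial genes, other count filters, a replicate block, an exon length offset (per library, log2 CPM smoothed by lowess over the log10 of exon length, span 0.3, prior count 0.5), both together, and each library left out, where the lone library is assumed to vary like the other group. The edgeR fit was tested on simulated data.

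Named were Hox genes whose mean reached 1 CPM in either group, with full statistics for called members and for the highest per kb of each cluster. Hox genes below that level are named where they mark a gap in a cluster or its largest spread between libraries, chosen after their values were seen. Of other lists up to 4 called genes of smallest p were named, or the 2 of highest level. The members and lists were chosen with earlier results of these data known. Intervals and limits on counts cover counting error only. 1 Hox gene is counted in sums and counts but is not reported here on its own.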

Additional observations from a re-analysis of the deposited data

How the results depend on the processing

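The 4 called Hox genes and Hoxa10, Hoxb4 and Hoxd13 kept their direction under every alternative, while the median over Hox genes, with a main value of 0.04, did not, nor did several members that were not called (Hoxa3 at -0.60 was at 0.21 without WT 2, and Hoxb3 at 0.50 was at -0.46 without WT 3). The count of 3 Hox genes higher became 0 with no filter on low counts (6 without adjustment), 1 with the exon length offset, 1 with DESeq2 and 1 with DESeq2 and ashr. The count of 1 lower became 0 with no filter, 2 with the exon length offset and 5 with the offset and the replicate block. In this last fit 2350 of all 16157 genes tested fell, beside 5 of the 32 Hox genes tested. Leaving out single libraries gave 0 to 10 higher and 0 to 3 lower. The median moved to -0.21 with the exon length offset, and it was -0.04 with at least 10 counts in every library. Over all genes 869 rose and 665 fell with no filter, against 2275 and 2314, and leaving out single libraries gave 506 to 4459 higher and 518 to 4254 lower. Of 13 settings run for each gene, Hoxc9 lost its call in 3, Hoxd10 in 4, Hoxb2 in 7 and Hoxc10 in 11. At this depth 1 count is worth 0.0492 to 0.0561 CPM, which limits what can be read from the Hoxb genes in single libraries.

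With the replicate number as a block 4 Hox genes were higher and 1 lower, with a median of 0.21, where 16.2% of all genes rose and 17.0% fell: Hoxb4 (1.27, adjusted p = 0.00431) and Hoxb7 (1.94, adjusted p = 0.0154), which had both cKO libraries but 1 WT library over the limit of the count filter, joined and Hoxc10 (0.66, adjusted p = 0.0561) was lost. Over all genes, libraries of the same number did not deviate together (correlation of deviations -0.089). A single correlation cannot tell whether they share a litter, a sort or a batch, which the labels do not give.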
